A study of Mus musculus with 2 samples.

Results

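The genes that carry glucose, amino acids and iron into the cell and those that run glycolysis were followed across natural killer (NK) cells and their neighbours in 2 single-cell RNA libraries. The set has 35 genes, taken by symbol from the 31053 gene rows of the deposited tables: 2 glucose transporters, 2 hexokinases, 12 further glycolytic enzyme genes with Pfkfb3, 4 genes of lactate and monocarboxylate transport, 2 of pyruvate entry into mitochondria, 4 of the pentose phosphate pathway, 5 of amino acid and iron uptake and 4 regulators. All 35 symbols were found. Aldoa stood on 2 rows, one with 10068 control and 6740 knockout UMIs and one with 0 in both, and these were added.

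Both libraries came from flow-sorted CD27+CD11b+ NK cells of the spleen of C57BL/6 mice, and each pooled 2 mice. The control carried floxed alleles of the prostaglandin E2 receptor EP3, encoded by Ptger3 (EP3F/F). The knockout carried the same floxed alleles with Cre driven from the NKp46 locus (NKp46CreEP3F/F), so deletion is expected in every cell that has used that promoter, other NKp46-positive innate lymphoid cells included. Animal age and treatment are not given in the sources used here. With 1 library per genotype there is no replicate, so no p-value or SD is given, and genotype, mouse pool and library cannot be told apart. Intervals in parentheses are exact 95% intervals and cover counting error only.

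Glycolysis turns glucose into pyruvate. In lymphocytes pyruvate is either reduced to lactate by lactate dehydrogenase or passed to mitochondria by pyruvate dehydrogenase, which Pdk1 inhibits. The pentose phosphate pathway branches off after hexokinase and supplies NADPH and ribose. Resting NK cells are known for a low rate of glycolysis, which rises with cytokine activation under mTORC1, the transcription factor MYC and glucose and amino acid transporters such as Slc2a1 and the Slc7a5-Slc3a2 pair. HIF-1, whose alpha subunit is Hif1a, is a textbook activator of glycolytic genes and binds a short core written ACGTG or GCGTG.

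The upstream sequences of 5 enzymes are shown because they are the enzymes whose transcripts differed between dividing and other NK cells in the same direction in both libraries and were called in G2/M. Each is the 250 bases before the start of the RefSeq transcript on GRCm38, 5′ to 3′ on the gene's strand, with each core match in capitals. A match is ACGTG, which reads CACGT on the other strand, or GCGTG, which reads CACGC there. For Ldha, with 2 windows listed, and Aldoa, with 3, the window listed first is shown, and which start NK cells use was not tested. For Ldha alone, the bases that follow the window were not found in its GENCODE transcripts.
Gapdh, chr6:125165774-125166023, minus strand: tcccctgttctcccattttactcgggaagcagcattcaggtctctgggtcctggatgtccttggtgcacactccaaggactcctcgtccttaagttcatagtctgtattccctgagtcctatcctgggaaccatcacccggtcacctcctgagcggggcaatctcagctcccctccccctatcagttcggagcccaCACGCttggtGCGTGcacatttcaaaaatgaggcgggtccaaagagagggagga
Ldha, chr7:46845554-46845803, plus strand: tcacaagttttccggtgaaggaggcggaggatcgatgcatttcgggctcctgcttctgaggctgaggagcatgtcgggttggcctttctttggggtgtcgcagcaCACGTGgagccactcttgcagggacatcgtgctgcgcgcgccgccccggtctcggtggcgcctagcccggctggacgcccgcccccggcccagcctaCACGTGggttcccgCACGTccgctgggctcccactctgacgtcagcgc
Pgk1, chrX:106186850-106187099, plus strand: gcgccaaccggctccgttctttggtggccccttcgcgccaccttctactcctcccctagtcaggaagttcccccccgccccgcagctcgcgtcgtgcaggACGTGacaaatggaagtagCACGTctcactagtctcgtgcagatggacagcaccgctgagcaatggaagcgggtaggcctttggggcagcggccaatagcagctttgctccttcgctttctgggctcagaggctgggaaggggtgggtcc
Tkt, chr14:30548881-30549130, plus strand: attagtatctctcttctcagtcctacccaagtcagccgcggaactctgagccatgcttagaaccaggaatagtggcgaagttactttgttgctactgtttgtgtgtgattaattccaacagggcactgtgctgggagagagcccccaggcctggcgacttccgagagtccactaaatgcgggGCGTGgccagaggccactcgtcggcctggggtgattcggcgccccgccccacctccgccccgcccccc
Aldoa, chr7:126800448-126800697, minus strand: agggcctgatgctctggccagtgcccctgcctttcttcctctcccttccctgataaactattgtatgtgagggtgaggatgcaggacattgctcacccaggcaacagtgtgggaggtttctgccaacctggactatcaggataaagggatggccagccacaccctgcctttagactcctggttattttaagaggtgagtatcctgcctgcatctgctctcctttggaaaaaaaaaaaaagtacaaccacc
The Ldha window held 5 matches, which include overlapping matches on opposite strands within CACGTG, those of Gapdh and Pgk1 held 2 each, that of Tkt 1 and that of Aldoa 0. Of the 31 genes of the set with a window, 24 (77.4%) held at least 1 match, against 38.6% of 27025 genes in the same table. CACGTG, the palindromic E-box bound by MYC and MAX, which itself contains ACGTG, was present in 4 of the 31 (12.9%) and in 6.05% of all genes. These are letter matches in a fixed window, with no measure of binding. Other genes that the results turn on lie, on GRCm38, at chr15:61985391-61990374 (Myc), chr7:141392199-141402968 (Taldo1), chr13:6579768-6648777 (Pfkp), chr4:119108711-119137983 (Slc2a1) and chr2:71873224-71903858 (Pdk1), each spanning the whole gene.

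The control library held 69853026 UMIs (unique molecular identifiers, 1 per captured transcript) in 11785 barcodes and the knockout 42795121 in 10615, and 33 barcode sequences occurred in both. After filtering, 10928 and 10023 cells remained. Gates on marker UMIs took 9970 control and 8716 knockout cells as NK cells, with a median of 5788.5 and 3813.5 UMIs per cell. Ncr1, the gene of NKp46, stood at 793 and 826 counts per 1000000 UMIs (CPM). Ptger3 had 13 UMIs in control NK cells and 0 of 36506065 in the knockout, where 3 counts would be 0.0822 CPM. Which exon is floxed is not given in the sources used here, and tags at the 3′ end may lie outside it, so the count was not used as a check of the deletion. In the NK gates, macrophage markers summed to 3.08 and 7.59 CPM and T cell markers to 196 and 244 CPM, of which Trbc2 made 170 and 196. Levels below are CPM of the summed UMIs of a gate, and as each transcript is tagged once at its 3′ end they are not divided by length. The ratio between the libraries did move with exon length, as given below, so levels of genes of unlike length are compared with that limit.

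In NK cells the set was led by Gapdh, glyceraldehyde-3-phosphate dehydrogenase, at 429 CPM (424 to 434) in control and 409 CPM (403 to 416) in knockout cells. Eno1 (enolase) followed with 220 and 277 CPM, Slc38a2 (a neutral amino acid transporter) with 208 and 206, and Ldha (lactate dehydrogenase A) with 203 and 166, below Taldo1 at 190 CPM in the knockout. At the low end Slc7a5, the light chain of the large amino acid transporter, had 0.542 and 0.110 CPM from 34 and 4 UMIs, while its heavy chain Slc3a2 stood at 139 and 144 CPM. The transferrin receptor Tfrc, which takes up iron, had 6.51 and 5.12 CPM. The 35 genes together took 2736 CPM in control and 2740 in knockout cells, a log2 ratio of 0.00 (-0.01 to 0.01).

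**Figure D1:**
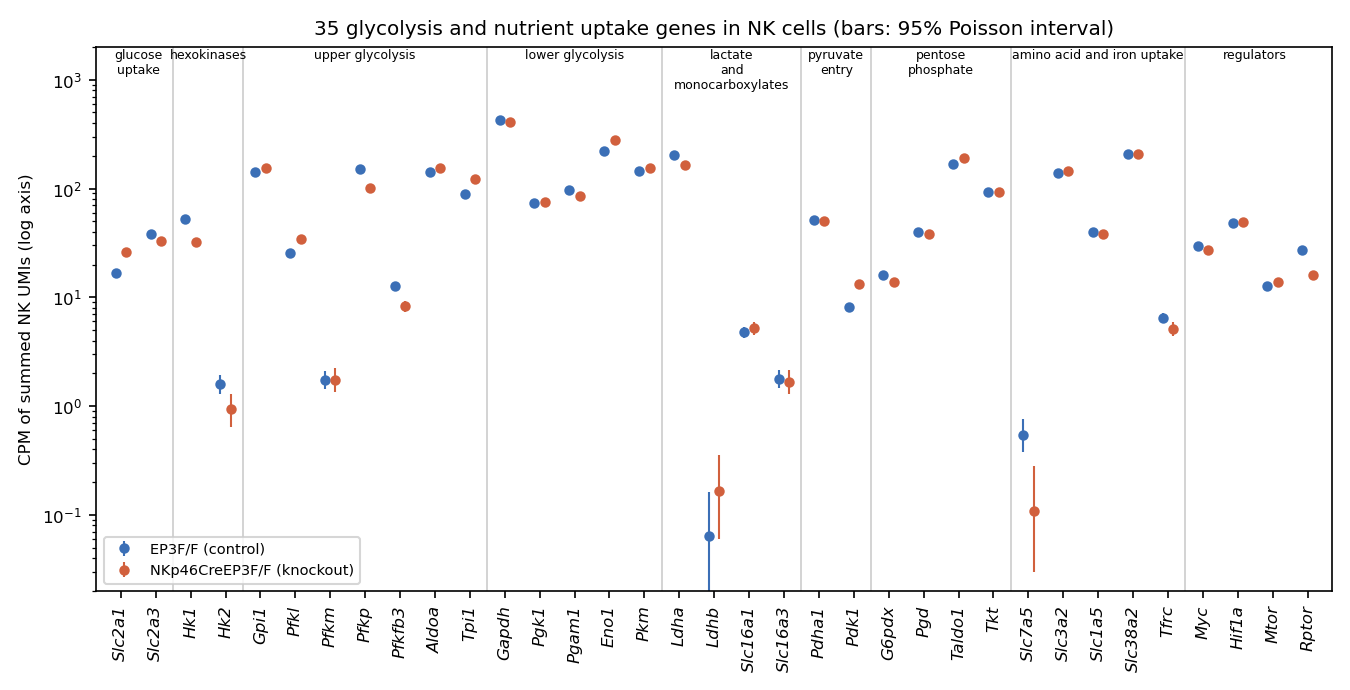
Levels of the 35 genes in NK cells of each library, in CPM of summed UMIs on a log axis, grouped by role, with bars for the 95% Poisson interval. Gapdh is highest at 429 and 409 CPM, and Slc7a5 and Ldhb are below 1 CPM in both libraries.

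One isozyme supplied most transcripts of several steps. Lactate dehydrogenase UMIs were Ldha but for 4 of 12760 in control NK cells and 6 of 6049 in knockout ones, which were Ldhb. Hk1, the widely expressed hexokinase, made 97.1% (96.5 to 97.6) and 97.2% (96.1 to 98.0) of Hk1 and Hk2 UMIs. Phosphofructokinase, the committed step of glycolysis, came mainly from Pfkp, the platelet-type subunit, with 84.6% (83.9 to 85.3) in control and 73.4% (72.2 to 74.6) in knockout cells. The liver-type subunit Pfkl took 14.4% (13.8 to 15.1) and 25.3% (24.1 to 26.5), and the muscle-type Pfkm 0.975% and 1.28%. Of the glucose transporter UMIs, Slc2a1 (GLUT1) held 30.8% (29.3 to 32.4) in control and 44.1% (41.9 to 46.2) in knockout cells, the rest being Slc2a3 (GLUT3). For lactate export, Slc16a1 held 72.8% (68.2 to 77.1) and 75.6% (69.8 to 80.8), the rest being Slc16a3. The phosphofructokinase and glucose transporter shares thus differed between the libraries by more than their counting intervals, and the others did not.

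Knockout NK cells had more transcripts of Pdk1, Slc2a1, Tpi1, Pfkl and Eno1 and fewer of Rptor, Hk1, Pfkfb3 and Pfkp than control NK cells, while the summed level of the glycolytic enzymes was equal. A gene was called where the log2 ratio was 0.32 or more from 0 (1.25-fold) and its mean level reached 10 CPM. Of the 35 genes 28 reached that level, and 5 were called higher, beside 14.9% of all 7332 measured genes, and 4 lower, beside 29.2%. The other 19 lay between. The median log2 ratio was 0.00 over the 28 and -0.07 over all measured genes. Both shares of the set, 5 and 4 of 28, were near or below the background, so the calls do not set the genes apart from the rest of the transcriptome. Hk2, Pfkm, Ldhb, Slc16a1, Slc16a3, Slc7a5 and Tfrc were under 10 CPM and not called.

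Among the transporters, Slc2a1 had 16.9 CPM in the control (1059 UMIs) and 25.8 CPM in the knockout (943 UMIs), a log2 ratio of 0.61 (0.48 to 0.74), and Slc2a3 had 37.9 and 32.8 CPM, a log2 ratio of -0.21 (-0.31 to -0.11). The summed level of both transporters was 54.7 and 58.6 CPM. Of the amino acid carriers that were measured, Slc3a2 had a log2 ratio of 0.06, Slc1a5, a glutamine carrier, -0.05, and Slc38a2 -0.01. Slc7a5, under the level needed for a call, had 34 UMIs in control and 4 in knockout cells, a log2 ratio of -2.31 (-4.26 to -0.82).

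In the upper part of glycolysis, Hk1 was at 52.5 CPM in control and 31.9 in knockout cells, a log2 ratio of -0.72 (-0.81 to -0.62). Pfkp was at 151 and 100 CPM, a log2 ratio of -0.59 (-0.64 to -0.53), and Pfkfb3, which makes the allosteric activator fructose 2,6-bisphosphate, at 12.6 and 8.27 CPM, a log2 ratio of -0.61 (-0.80 to -0.41). These 3 enzymes act at entry and control points of the pathway, as do Slc2a1 and Pfkl, which were called higher. In the opposite direction, Pfkl was at 25.7 and 34.5 CPM, a log2 ratio of 0.43 (0.32 to 0.53), and Tpi1 (triosephosphate isomerase) at 90.0 and 121 CPM, a log2 ratio of 0.43 (0.38 to 0.49). In the lower part Eno1 alone was called, with a log2 ratio of 0.33 (0.30 to 0.37), just inside the size used. Ldha, at -0.30 (-0.34 to -0.25), was just outside it. The 15 glycolytic enzyme genes together had 1773 CPM (1762 to 1783) in control and 1767 CPM (1754 to 1781) in knockout cells.

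Pdk1, the kinase that switches off pyruvate dehydrogenase, was at 8.20 and 13.2 CPM, a log2 ratio of 0.68 (0.50 to 0.87), while Pdha1, its substrate subunit, was at 50.8 and 50.7 CPM. None of the 4 pentose phosphate genes was called, and their log2 ratios ran from -0.21 for G6pdx, the entry enzyme, to 0.16 for Taldo1 (transaldolase). Among regulators, Rptor, which encodes the mTORC1 scaffold Raptor, was at 27.3 and 15.9 CPM, a log2 ratio of -0.78 (-0.91 to -0.64), beside 0.13 for Mtor itself, 0.02 for Hif1a and -0.11 for Myc.

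**Figure D2:**
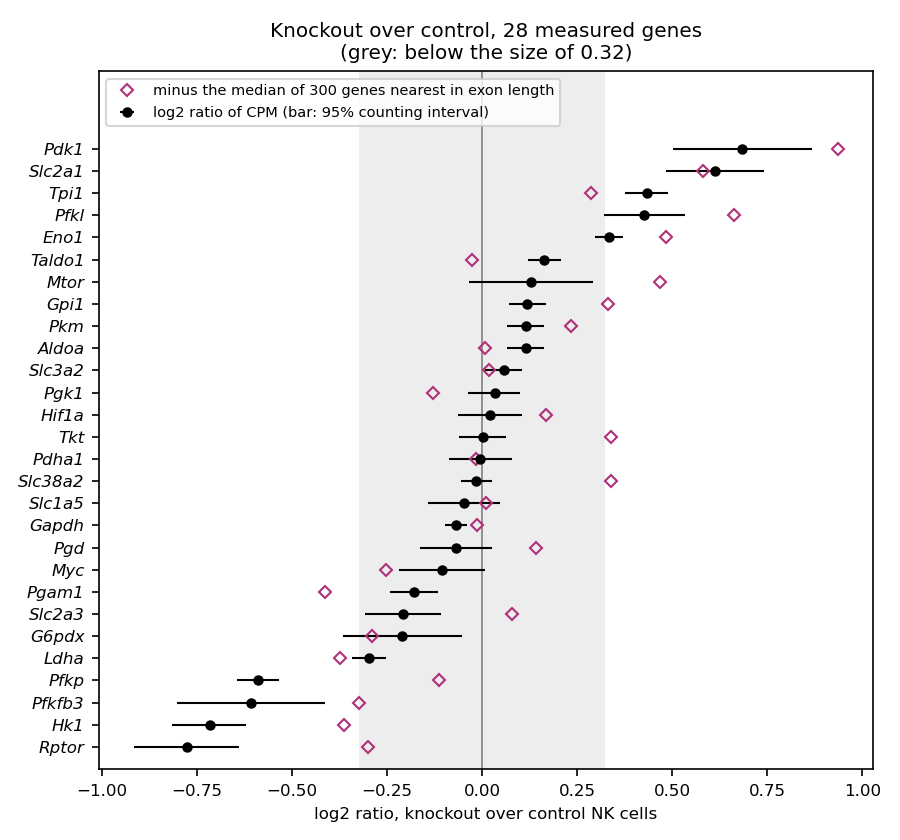
Log2 ratio of knockout over control NK cells for the 28 genes measured, with bars for the 95% counting interval and open diamonds for the ratio less the median of the 300 measured genes nearest in exon length. The grey band is the size below 0.32, and 5 genes lie right of it and 4 left of it by the filled points.

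The ratio between the libraries moved with gene length over all genes. The median log2 ratio of all measured genes went from 0.21 in the shortest of 8 classes of summed exon length to -0.44 in the longest. The 4 genes called lower have summed exons of 7561 to 13471 bases, and the 5 called higher 2753 to 7779 bases. Less the median of the 300 genes nearest in length, Pfkp stood at -0.11, Rptor at -0.30, Pfkfb3 at -0.32 and Hk1 at -0.36. On that scale 8 genes were higher and 4 lower, of which 4 and 2 were called on both scales. Of all 7332 genes 15.7% were higher and 18.6% lower on that scale. Pdk1 (0.94), Pfkl (0.66), Slc2a1 (0.58) and Eno1 (0.48) were higher on both, and Hk1 and Pfkfb3 lower on both. Tpi1 fell inside the band at 0.29. Mtor (0.47), Tkt (0.34), Slc38a2 (0.34) and Gpi1 (0.33) were added above it, and Pgam1 (-0.41) and Ldha (-0.37) below it.

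**Figure D3:**
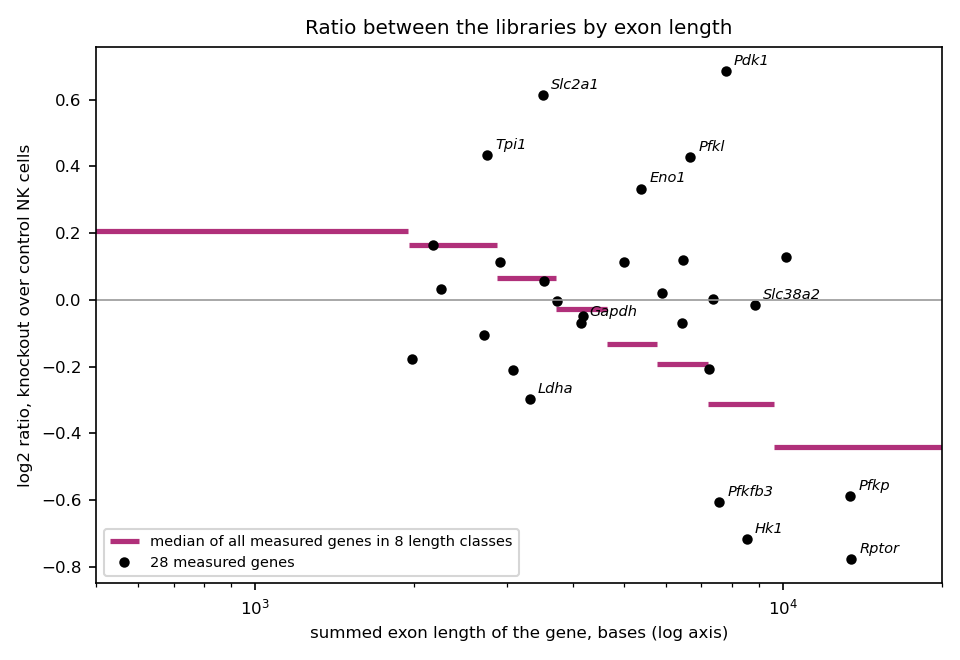
Log2 ratio of knockout over control NK cells against the summed exon length of each gene on a log axis, for the 28 measured genes (points) and the medians of all measured genes in 8 length classes (bars). The class medians fall from 0.21 to -0.44, and Pfkp, Rptor, Hk1 and Pfkfb3 sit at the long end.

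The 3 maturation bins described below are parts of the NK cells that gave the calls, so they are no separate check. Each of the 9 called genes kept its direction in all 3. Slc2a1, for example, had log2 ratios of 0.54, 0.63 and 0.62 from the least to the most mature bin, and Rptor -1.07, -0.73 and -0.64. In the T-like cells of the same libraries (49 control, 115 knockout) the 9 genes also had the sign seen in NK cells, with intervals that reached 0 for 8 of them. Eno1 had 0.48 (0.02 to 0.96), Hk1 -0.52 (-1.67 to 0.66), Pfkp -0.76 (-1.61 to 0.09), Rptor -1.14 (-2.68 to 0.35) and Slc2a1 0.18 (-1.50 to 2.08). The dendritic and macrophage gates had fewer UMIs and mixed signs, such as 0.67 (-1.94 to 4.06) for Pfkp in dendritic-like cells and 0.86 (-2.10 to 6.36) for Pfkfb3 and -1.94 (-5.73 to 1.84) for Pfkl in macrophage-like cells.

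Among 71 other genes of the same pathways, 41 were measured, with a median log2 ratio of 0.08. In the knockout 7 were higher, beside 14.9% of all 7332 measured genes, and 8 lower, beside 29.2%. These counts do not set the lists apart from all genes, and the genes named below are single values. Of the mTORC1 list 13 of 15 were measured and 2 were higher: Akt1s1, the inhibitor PRAS40, at 12.6 and 19.1 CPM (log2 ratio 0.60), and Lamtor1, a lysosomal anchor of mTORC1, at 79.6 and 118 CPM (0.57). One, Lamtor3, was lower (-0.43). Of 7 MYC network genes, the MYC antagonists Mxd4 (-0.74) and Mxd1 (-0.60) and the repressor Mga (-0.68) were lower and Mxi1 (0.35) higher. Less the median of genes of like length, Mga was inside the band at -0.14. Mxd4 then had -0.42, Mxd1 -0.34 and Mxi1 0.57. Among transporters the glutamine carrier Slc38a1 had 110 and 58.9 CPM, a log2 ratio of -0.90 that was -0.37 on the length scale, and of the pyruvate list the mitochondrial pyruvate carrier Mpc1 was higher (0.45) and Pdk3 lower (-0.49).

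Across the maturation range of these sorted CD27+CD11b+ cells the set varied little. The libraries came from that sort alone, so this range is not all of NK maturation. NK cells outside the state gates were cut within each library into 3 bins of like size by the share of mature among mature and immature marker UMIs, at 24.1% and 45.5% in control and 11.8% and 31.3% in knockout cells. In the control 1517 and 1280 cells lay within 5 points of these cuts and in the knockout 1940 and 1004, so the bins are ranges and not types. A state or cell type call needed a log2 ratio 0.58 or more from 0 (1.49-fold) in the same direction in both libraries, where equal levels would give at least 5 UMIs in each compared gate. None of the 33 genes measured was called higher (1.58% of 11282 genes) or lower (2.22%). With shares this low over all genes, the absence of calls does not set the genes apart from the rest of the transcriptome.

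Myc and Pdk1 came closest to that size. Myc, which drives glycolytic and ribosomal genes in activated lymphocytes, stepped from 31.0 through 27.8 to 21.8 CPM in control and from 30.4 through 27.8 to 19.9 CPM in knockout cells, log2 ratios of -0.51 (-0.70 to -0.32) and -0.61 (-0.86 to -0.36). Pdk1 went from 9.64 to 6.70 CPM and from 16.2 to 10.6 CPM, log2 ratios of -0.52 (-0.87 to -0.19) and -0.61 (-0.95 to -0.26). Gpi1, glucose-6-phosphate isomerase, was also lower in the most mature bin in both libraries, by log2 ratios of -0.26 and -0.25. Pfkp went the other way, from 136 to 164 CPM and from 87.5 to 110 CPM, log2 ratios of 0.27 (0.20 to 0.35) and 0.33 (0.21 to 0.45). The summed glycolytic enzymes were 1797 CPM in the least and 1701 CPM in the most mature bin of the control, and 1773 and 1734 CPM in the knockout. Of the other pathway genes, Mxi1, a MAX partner that opposes MYC, was called higher with maturation, from 8.02 to 14.9 CPM (0.90) and from 11.5 to 19.5 CPM (0.76).

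NK cells with high chemokine transcripts (Ccl3, Ccl4, Xcl1, with Nr4a1 and Nr4a3) had a higher level of Myc than remaining NK cells and otherwise a nearly level set. The gate held 348 control and 80 knockout cells. Myc stood at 27.1 CPM in remaining NK cells and 83.3 CPM in the gate of the control (192 UMIs), a log2 ratio of 1.62 (1.40 to 1.84). In the knockout it stood at 26.2 and 100 CPM (37 UMIs), a log2 ratio of 1.94 (1.42 to 2.41). With each cell thinned to 2000 UMIs, Myc was detected in 12.1% (8.89 to 16.1) of the gated control cells and 5.0% of remaining ones, and in 19.2% (11.2 to 29.7) and 5.0% in the knockout. Without thinning these shares were 27.3% and 13.0% in the control, and 20 of 80 cells and 9.01% in the knockout. Myc was the 1 gene called higher of 26 measured, beside 1.22% of 6476 genes, and 0 were lower, beside 1.45%. That call rests on the minimum of 5 expected UMIs, which was lowered from 10 because Myc was left out at 10. With 10, with a stricter gate or with thinning, Myc had too few UMIs and 0 genes were higher, although its log2 ratios were 2.34 and 2.08 in the stricter gate and 1.66 and 2.26 after thinning. Nr4a1 and Nr4a3, used in the gate, belong like Myc to the early response to receptor signals.

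Smaller differences pointed the same way in both libraries for Ldha, with log2 ratios of 0.22 (0.09 to 0.34) and 0.48 (0.15 to 0.79), for Slc3a2, 0.31 (0.16 to 0.45) and 0.42 (0.06 to 0.76), and for Aldoa (aldolase A), 0.18 (0.02 to 0.33) and 0.35 (-0.01 to 0.68). The summed glycolytic enzymes were level, with log2 ratios of 0.04 (-0.01 to 0.08) and 0.12 (0.01 to 0.22). Hk2, the inducible hexokinase, was below the count needed for a call. It had 14 UMIs in the control gate, 6.07 CPM (3.32 to 10.2) against 1.38 CPM in remaining NK cells, and 0 UMIs in the knockout gate, where 3 counts would be 8.14 CPM. Of the control gate's Hk1 and Hk2 UMIs Hk2 held 11.5% (6.4 to 18.5). Of the glucose transporters, Slc2a1 had a log2 ratio of -0.09 in both libraries, and Slc2a3 had 0.03 (-0.29 to 0.34) in the control and 0.93 (0.27 to 1.52, from 23 UMIs) in the knockout.

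Cells with interferon response transcripts (49 control, 75 knockout) showed a like level of Myc. It stood at 85.3 CPM (26 UMIs) in the control gate and 88.1 CPM (27 UMIs) in the knockout gate, log2 ratios of 1.66 (1.04 to 2.21) and 1.75 (1.14 to 2.30) over remaining NK cells. This gate also held 2569 and 2043 CPM of the chemokine list, against 566 and 317 CPM in remaining NK cells, and the part of those transcripts in the Myc level was not tested. Of 23 genes measured 2 were called higher, beside 3.77% of 5652 genes, and 1 lower, beside 6.33%. The second higher gene was Pgd, 6-phosphogluconate dehydrogenase, with 0.71 (-0.00 to 1.34) and 1.17 (0.55 to 1.73), and the lower was Pfkl, with 5 UMIs in each gate. Thinning to 2000 UMIs per cell turned both in the control, Pgd to -0.99 and Pfkl to 0.28, and left 0 genes called in either direction. Myc then had 0.92 and 1.35. MAX, the partner of MYC, and its antagonist Mxd1 were higher (0.63 and 0.89, 0.65 and 1.19), and Mxd4 was lower (-1.22 and -1.26).

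Dividing NK cells carried a larger summed share of glycolytic enzyme transcripts than other NK cells, though not at each step. S phase markers gated 108 control and 21 knockout cells, and G2/M markers 71 and 20. The 15 summed glycolytic enzymes were 1747 CPM in remaining control NK cells, 2563 CPM (2473 to 2655) in S phase and 2465 CPM (2355 to 2578) in G2/M. In the knockout they were 1756, 2941 (2720 to 3175) and 2458 CPM (2246 to 2684). By role, the 5 lower glycolysis genes had summed log2 ratios of 0.75 in S phase and 0.74 in G2/M of the control. The 7 upper glycolysis genes had 0.18 in S phase of both libraries, and -0.03 (control) and -0.02 (knockout) in G2/M. In G2/M the 2 hexokinases had -0.22 (-0.73 to 0.26, 36 UMIs) and -0.14 (-1.59 to 0.99, 6 UMIs). The 2 glucose transporters had -1.09 (-1.80 to -0.46, 20 UMIs) and -0.76 (-2.07 to 0.29, 7 UMIs) there. Per cell, glycolytic UMIs numbered 10.8 in remaining NK cells, 28.5 in S phase and 26.7 in G2/M of the control, and 7.30, 31.2 and 24.8 in the knockout. These gated cells were deeper, with medians of 10309 and 9954 UMIs in control and 10833 and 10810 in knockout cells, against 5727.5 and 3804. The gates needed at least 8 S phase or 5 G2/M marker UMIs per cell, which by itself favours deep cells.

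Gapdh, Pgk1, Ldha and Tkt were higher in both dividing gates of both libraries. Gapdh went from 414 CPM in remaining NK cells to 834 CPM in S phase and 912 CPM in G2/M of the control, log2 ratios of 1.01 (0.92 to 1.10) and 1.14 (1.03 to 1.25). In the knockout it went from 402 CPM to 968 and 948 CPM, log2 ratios of 1.27 (1.07 to 1.46) and 1.24 (1.02 to 1.44). Pgk1, phosphoglycerate kinase, went from 72.1 CPM to 123 and 133 CPM in control and from 74.5 to 161 and 129 CPM in knockout cells. Ldha went from 199 to 304 and 306 CPM, and from 163 to 359 and 253 CPM. Tkt, the transketolase that links the pentose phosphate branch back to glycolysis, went from 90.5 to 173 and 151 CPM and from 92.6 to 161 and 164 CPM. In all 4 genes both dividing gates stood above the remaining NK cells of their library, with intervals of the log2 ratio above 0. With every cell thinned to 2000 UMIs, however, Tkt turned to -0.90 in knockout S phase, while Gapdh had 0.94 and 0.86 and Ldha 0.74 and 1.33 there.

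In S phase 5 of 23 measured genes were called higher, beside 3.74% of 5033 genes: these 4 and Pgam1, phosphoglycerate mutase, with 0.65 (0.43 to 0.87) and 0.66 (0.09 to 1.18). None was lower, beside 5.98%. In G2/M the same 4 without Pgam1 were higher, beside 5.16% of 4725 genes. Pkm, pyruvate kinase, and Tpi1 were above remaining NK cells in each gate and library without a call, Pkm with log2 ratios of 0.46 and 1.12 in S phase and Tpi1 with 0.92 and 0.52 in G2/M. Eno1, between Pgam1 and Pkm in the pathway, had 0.37 and 0.20 in S phase but -0.02 and -0.38 in G2/M, where it stood at 216 and 213 CPM. Myc had 0.19 and 0.45 in S phase, and in G2/M 0.21 and -0.81, the latter on 3 UMIs.

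Aldoa was the 1 enzyme called lower in G2/M. It had 142 CPM in remaining NK cells and 66.4 CPM (51 UMIs) in G2/M cells of the control, a log2 ratio of -1.10 (-1.52 to -0.70), and 154 and 39.7 CPM (8 UMIs) in the knockout, a log2 ratio of -1.95 (-3.16 to -0.97). In S phase its log2 ratios were -0.16 (-0.40 to 0.07) and -0.58 (-1.23 to 0.01). Slc2a3 was the other gene called lower in G2/M, beside 9.44% of 4725 genes, from 38.2 to 18.2 CPM (14 UMIs) and from 32.8 to 9.93 CPM (2 UMIs).

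Against remaining NK cells with UMI totals between the quartiles of the dividing cells (238 to 2510 reference cells, with medians of 8125.5 to 9622 that were still below the 9954 to 10833 of the gates), a comparison added after the data were seen, the higher set shrank to Gapdh, Pgk1 and Tkt in both gates. Gapdh then had log2 ratios of 0.78 and 1.02 in S phase and 0.96 and 0.94 in G2/M. Ldha had 0.41 and 0.94 in S phase and 0.49 and 0.37 in G2/M. The deficit of Aldoa in G2/M was as large on this reference, at -1.11 (-1.54 to -0.71) and -1.96 (-3.18 to -0.96).

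**Figure D4:**
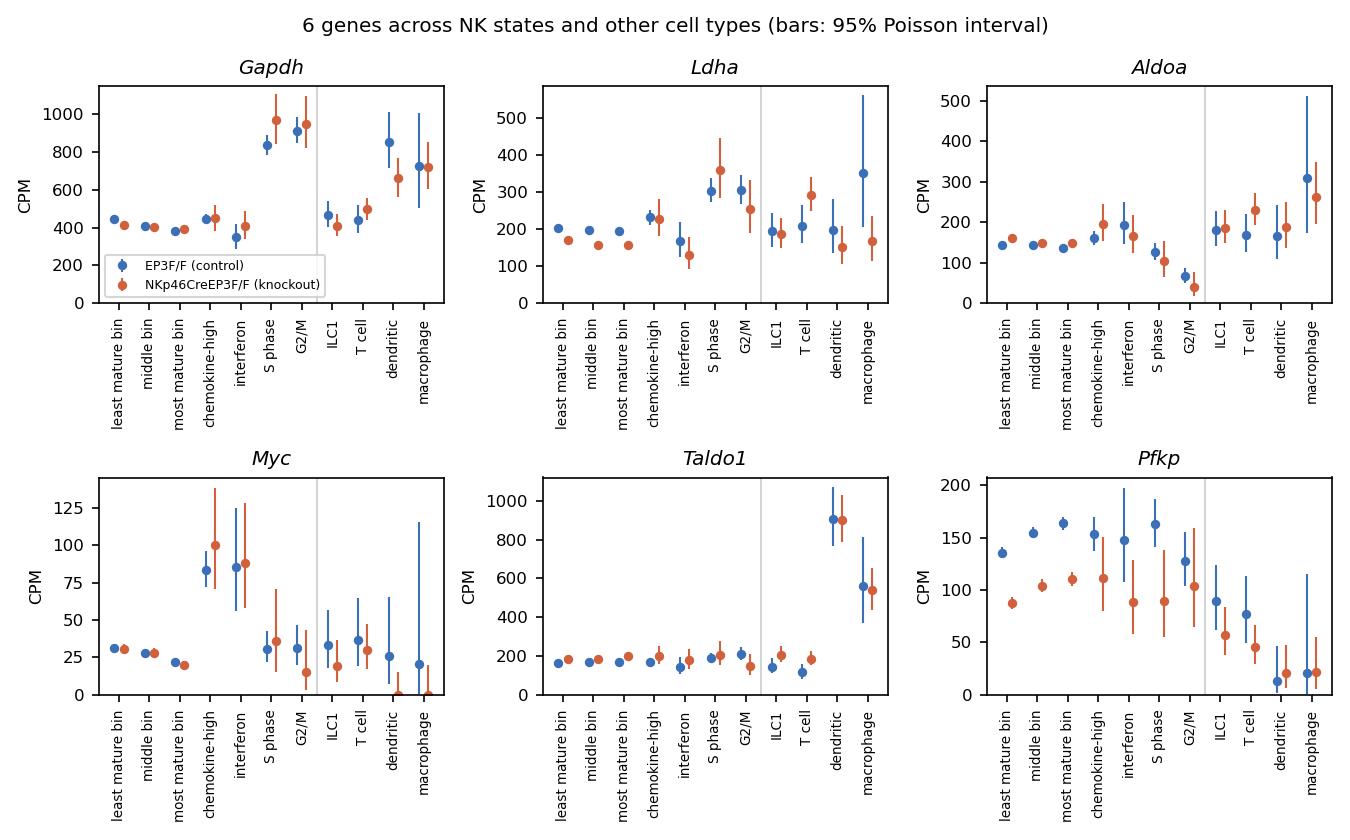
Levels of Gapdh, Ldha, Aldoa, Myc, Taldo1 and Pfkp in CPM across the 3 maturation bins, NK states and other cell types of each library, with bars for the 95% Poisson interval. Gapdh and Ldha are high in S phase and G2/M, Aldoa is low in G2/M, Myc is high in the chemokine-high and interferon gates, and Taldo1 is high in the dendritic and macrophage gates at 538 to 909 CPM.

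Other pathway genes in dividing cells were mostly level. Of the MYC network, Mxd1 was lower in S phase (-0.62 and -0.69), and Mxd4 (-1.03 and -1.10), Mxd1 (-0.75 and -0.64) and Max (-0.66 and -0.58) were lower in G2/M. Rraga, a GTPase that brings mTORC1 to the lysosome, was lower in G2/M (-1.03 and -1.11) on 13 and 4 UMIs. None of the other pathway genes was called higher in either gate, of 26 measured in S phase and 25 in G2/M, beside 3.74% and 5.16% of all measured genes. In S phase 1 was lower, beside 5.98%, and in G2/M 4, beside 9.44%.

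ILC1-like cells, gated on Il7r and other ILC1 markers with an NK receptor UMI (56 control, 94 knockout), had the glycolytic level of NK cells. The gate set no upper limit on NK markers, which stood at 13052 and 14637 CPM against 20797 and 23840 in NK cells. It is thus not cleanly apart from NK cells. The summed enzymes of the ILC1-like cells were 1777 CPM (1648 to 1915) and 1877 CPM (1755 to 2005), log2 ratios of 0.00 (-0.11 to 0.11) and 0.09 (-0.01 to 0.18) over NK cells. Of 25 genes measured none was called higher (1.55% of 6568 genes) and 2 lower (3.11%). Pfkp had 89.4 CPM against 151 in control and 57.4 against 100 in knockout cells, log2 ratios of -0.75 (-1.28 to -0.28) and -0.81 (-1.41 to -0.26), and Slc2a3 had -0.72 (-1.85 to 0.21) and -0.63 (-1.69 to 0.26).

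T-like cells (49 control, 115 knockout, with NK markers at 2039 and 1972 CPM against 20797 and 23840 in NK cells) differed from NK cells in Ldhb, Pdk1, Pfkp and Tpi1. Ldhb, which favours pyruvate, was nearly absent from NK cells but had 5 and 14 UMIs in T-like cells, 15.4 CPM (4.99 to 35.9) and 24.4 CPM (13.3 to 41.0), or 6.8% and 7.7% of the lactate dehydrogenase UMIs. Pdk1 was at 36.9 CPM in control T-like cells (12 UMIs) against 8.20 CPM in NK cells, and at 55.8 CPM (32 UMIs) against 13.2 CPM in the knockout, log2 ratios of 2.17 (1.21 to 2.99) and 2.08 (1.52 to 2.60). Both were too low in NK cells for a call and were singled out after their values were seen. Pfkp, at 76.9 and 45.3 CPM, and Tpi1, at 52.3 and 54.1 CPM, were the 2 genes called lower of 25 measured, beside 14.3% of 6224 genes, and none was higher, beside 2.39%.

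Dendritic-like cells, gated on MHC class II genes, Cd74, Flt3 and Cst3 with Siglech at 0 in both libraries, and macrophage-like cells had more Taldo1 (transaldolase) and less Pfkp than NK cells. Taldo1 stood at 169 CPM in control NK cells and 909 CPM in the dendritic gate (142 UMIs), a log2 ratio of 2.42 (2.17 to 2.66), and at 190 and 904 CPM (222 UMIs) in the knockout, a log2 ratio of 2.25 (2.05 to 2.45). In macrophage-like cells it was at 559 CPM (27 UMIs) and 538 CPM (100 UMIs), 3.30-fold and 2.84-fold the NK level. The 4 pentose phosphate genes together had 1133 and 1144 CPM in dendritic-like cells and 890 and 904 CPM in macrophage-like cells, against 318 and 335 CPM in NK cells. The rate-limiting G6pdx was below the count needed for a call in macrophage-like cells, with 5 and 12 UMIs, 103 and 64.6 CPM, against 16.0 and 13.8 CPM in NK cells.

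In the dendritic gate (77 and 103 cells) 4 of 20 measured genes were higher, beside 5.11% of 4133 genes, and 6 lower, beside 50.7%. Beside Taldo1 the higher ones were Gpi1, from 142 to 288 and from 154 to 285 CPM, Tkt, from 92.9 to 186 and from 93.1 to 187 CPM, and Gapdh, from 429 to 851 and from 409 to 660 CPM. The lower ones were Pfkp, Pdha1, Slc2a3 and 3 amino acid carriers. Pfkp had 12.8 and 20.4 CPM (2 and 5 UMIs), Slc3a2 19.2 and 44.8 CPM (3 and 11 UMIs) and Slc38a2 25.6 and 97.7 CPM (4 and 24 UMIs). Slc1a5 and Slc2a3 had 0 UMIs in the control gate, at least 2.07-fold and at least 1.97-fold lower than NK cells against 3 counts per gate, and 1 UMI each in the knockout gate. Lower calls were common over all genes, since the median log2 ratio of all measured genes was -0.84 and -0.99. With median-of-ratios scaling, which removes that shift, 8 genes were higher, beside 23.7% of all 4133, and 2 lower, beside 21.2%. The dendritic gate also held more division markers than the NK gate. G2/M markers summed to 390 and 558 CPM, against 91.1 and 67.3 in NK cells, and S phase markers to 832 and 350 CPM, against 290 and 255. Gapdh and Tkt were also higher in dividing NK cells, and the part of dividing cells in the dendritic levels was not tested.

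In the macrophage gate (33 and 100 cells) only 10 genes were measured. Taldo1, Aldoa (1.13 and 0.78) and Gapdh (0.76 and 0.82) were higher, beside 5.45% of 1430 genes. Pfkp (1 and 4 UMIs), Slc38a2 (3 and 7 UMIs) and Eno1 (4 and 28 UMIs) were lower, beside 38.1%. Hk2 held most of the few hexokinase UMIs of these cells. Macrophage-like cells had 0 Hk1 and 2 Hk2 UMIs in control and 1 and 9 in knockout cells. Dendritic-like cells had 6 and 0 in control and 2 and 9 in knockout cells, so the libraries differed there, with a Hk2 share of 0.0% (0.0 to 45.9) and 81.8% (48.2 to 97.7). The barcodes of both gates were shallow, with medians of 1676 and 1965 UMIs in dendritic-like and 1151 and 1530 in macrophage-like cells. Under the stricter filter (1000 genes, 5% mitochondrial UMIs) 7 and 14 dendritic-like and 1 and 11 macrophage-like cells remained. Droplets in these gates still held NK markers at 1665 to 3021 CPM, and the macrophage gate held dendritic markers at 7098 and 13540 CPM. G2/M markers stood at 414 and 96.9 CPM in the macrophage gate, and S phase markers at 662 and 205 CPM. The part of such other transcripts in these levels was not tested.

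**Figure D5:**
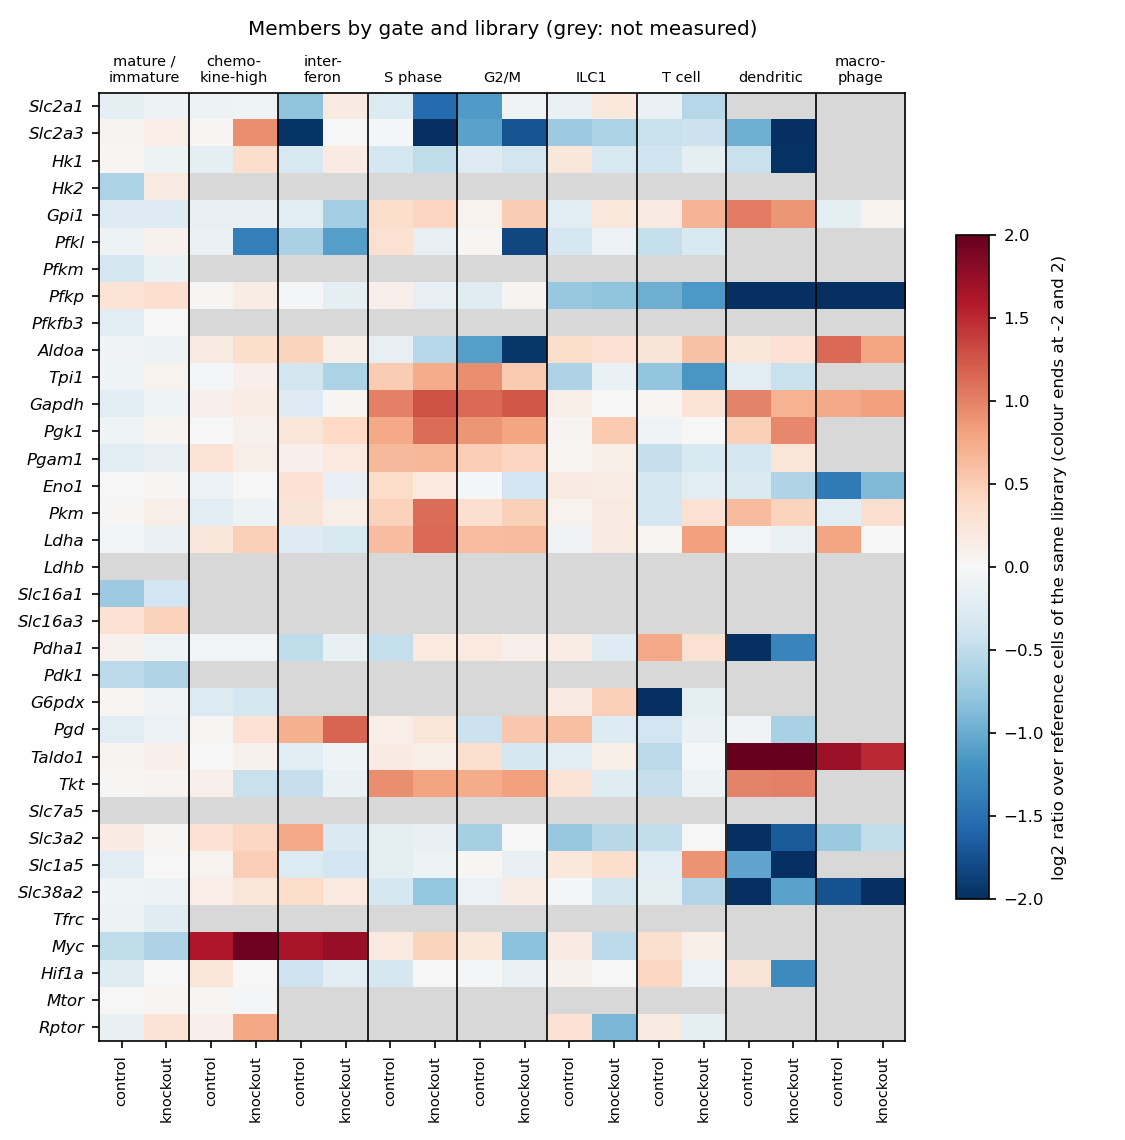
Log2 ratio of each gene in 9 comparisons and 2 libraries, in colour from -2 to 2, over the least mature bin (left pair), remaining NK cells (chemokine-high to G2/M) or all NK cells (ILC1 to macrophage) of the same library. Grey marks genes with too few UMIs for a call, and a gene with 0 UMIs is drawn at its bound. Myc stands out in the chemokine-high and interferon pairs, Gapdh, Pgk1, Tkt and Ldha in the dividing pairs, and Taldo1 in the dendritic and macrophage pairs.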

How the data were processed

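Flow-sorted splenic NK cells of 2 genotypes were profiled with the Single Cell 3′ v2 kit, per the labels' protocols, 1 library per genotype. The deposited values are raw UMI counts per gene and barcode. STAR, Cell Ranger 3.0.0 and Seurat are named with GRCm39 in the submitters' processing notes, and how each was used is not given in the sources used here. Barcodes under 500 genes or over 10% mitochondrial UMIs were left out. Cells were gated on marker UMIs, summed per gate and library, and scaled to CPM. No doublet caller was run. The NK gate needed at least 80 NK marker UMIs per 10000 and allowed few of other lineages. The T cell, dendritic and macrophage gates needed under 50 NK marker UMIs per 10000, and the ILC1 gate set no upper limit on them. Gate thresholds were set after marker sums were seen, and the minimum of 5 expected UMIs after a minimum of 10 left Myc out. The genes and lists were chosen with earlier results of these data known. Genes named from the other pathway lists were up to 4 of the largest measured ratios per list. Poisson intervals (levels), conditional binomial intervals (ratios) and Clopper-Pearson intervals (shares) were computed with scipy 1.17.1. Only the ratio intervals and calls of knockout over control NK cells were run on simulated counts. Those counts were Poisson, with no variation between mice or libraries, so the run checks the code alone. Exon lengths and identifiers came from GENCODE on GRCm38, which matched 30934 gene identifiers, and upstream sequences from RefSeq. Reads of near-identical copies, such as Eno1b for Eno1 (48 control and 51 knockout UMIs in NK cells) and the pseudogenes of Gapdh, may be split between genes, so these levels are uncertain. Alternatives were scaling, thinning, stricter gates and filters, length and reference cells of like depth.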

Additional observations from a re-analysis of the deposited data

How the results depend on the processing

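No paired analysis was possible because each genotype is 1 library, and for the same reason no library could be left out. Counts of genes called that moved by more than 1.5 times were as follows. Knockout over control: 8 higher, not 5, after the length adjustment. With stricter marker thresholds: 1 lower in the most mature bin (0 before), 0 higher in chemokine-high cells (1 before), 1 higher in interferon cells (2 before), 3 higher in S phase (5 before) and 1 lower in G2/M (2 before). With cells thinned to 2000 UMIs: 1 lower in the most mature bin, 0 higher in chemokine-high cells, 0 higher and 0 lower in interferon cells, 2 higher in S phase and 2 higher in G2/M, where 9 to 31 genes had enough UMIs. With at least 10 expected UMIs, chosen after the data were seen: 0 higher in chemokine-high cells, 1 higher and 0 lower in interferon cells, 1 lower in G2/M, 3 lower in dendritic-like cells and 1 higher in macrophage-like cells, since fewer genes were measured. Median-of-ratios scaling gave 0 lower in interferon cells, 1 lower in T-like cells, and 8 higher and 2 lower in dendritic-like cells. With reference cells of like UMI totals, also chosen after the data were seen, 3 were higher in S phase. In the chemokine-high gate Myc kept its higher level under the 5 other settings run. Its log2 ratios were 1.63 to 2.34 in the control and 1.87 to 2.26 in the knockout. It dropped from the count with stricter thresholds, thinning or at least 10 expected UMIs, where too few UMIs were expected. Against reference cells of like UMI totals it was still called higher (1.71 and 1.87). Thinning reversed 3 single values, to 0.28 for Pfkl and -0.99 for Pgd in control interferon cells and -0.90 for Tkt in knockout S phase, and the cause was not tested. Gates without any NK marker UMI held 1 to 17 cells and were not run, and the ILC1 gate needs an NK receptor UMI. The smallest gates, 20 and 21 dividing knockout cells, limit what their depth can show.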

Other observations

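Several low genes outside the set differed in ways the comparisons above do not use. Ldhal6b, a lactate dehydrogenase relative, had 20 UMIs in control and 2 in knockout NK cells. With maturation the hexokinase Hk3 stepped from 2.56 to 1.14 CPM in the control (20 UMIs in the most mature bin) and from 2.17 to 0.94 CPM in the knockout (10 UMIs), and the oxygen sensor Egln3 from 1.03 to 0.51 and from 1.42 to 0.75 CPM. In chemokine-high cells the mTORC1 inhibitor Akt1s1 and the mTORC1 target Eif4ebp1 were lower in both libraries, with log2 ratios of -0.82 and -0.83 and of -0.85 and -1.10, on 3 to 24 UMIs. In dendritic-like cells both subunits of the mitochondrial pyruvate carrier were higher than in NK cells, Mpc2 with log2 ratios of 1.46 and 1.06 and Mpc1 with 1.24 and 0.85, while the pyruvate dehydrogenase subunit Pdhb was lower (-1.81 and -1.34, on 3 and 7 UMIs).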
